A study of Homo sapiens with 12 samples.

Results

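The proteasome genes of HT29 libraries were described here across a drug experiment and a knockdown experiment. The genes were taken by symbol, as every row named PSMA to PSMG followed by a number, and the rule reads no measured level. The set was nevertheless chosen with earlier results of these data known. The rule found 49 of the 18665 genes in the tables. Of these, 47 encode subunits, regulators or assembly factors of the proteasome. The other 2 only share the naming pattern: PSMC3IP acts in meiotic recombination, and PSME3IP1 binds the regulator PSME3. RNA sequencing covered 12 libraries in 4 groups of 3, all labelled with the cell line HT29, which was derived from a human colon carcinoma. The CM10 libraries stand for treatment with CM10, an inhibitor of ALDH1A enzymes that the methods of the study give at 10 µM for 2 h, with CTRL_CM10 as the control group. The shZBTB7B libraries stand for a line carrying a short hairpin RNA against the transcription factor ZBTB7B, with CTRL_shZBTB7B as the control group. Whether the 3 libraries of a group were grown separately is not labelled, and the spread on which the p-values rest may then be a technical one.

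The proteasome degrades proteins that carry ubiquitin chains. Its barrel-shaped core is built of outer rings of alpha subunits and inner rings of beta subunits, and it is capped by a regulatory particle whose ATPases unfold substrates and whose other subunits bind and remove ubiquitin. Interferon and immune cells replace the catalytic beta subunits by immune counterparts, which shape the peptides shown on MHC class I molecules, and dedicated chaperones help to assemble the core and its cap.

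Levels are given as TPM, transcript abundances that sum to a fixed total in each library, and values of a group are listed for replicates 1, 2 and 3 in that order. Differences are between group means of log2(TPM + 1). A gene was called where the limma adjusted p was under 0.05 over all genes tested, and "rose" and "fell" are used of called genes only. TPM carries no sequencing depth, so no counting error can be given.

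The libraries themselves differed before any comparison. Of 1888 genes averaging 50 TPM or more, 33, 195 and 368 were listed at 0 in the CM10 libraries, against 11 to 32 in the CTRL_CM10 libraries. In the hairpin experiment 143, 12 and 108 of them were listed at 0 in the shZBTB7B libraries, against 8 to 26 in the CTRL_shZBTB7B libraries. MTRNR2L genes, which resemble mitochondrial ribosomal RNA, took 73.8% and 46.0% of the TPM of CTRL_CM10 replicates 2 and 3, 29.9% of shZBTB7B replicate 2 and at most 10.4% of any other library. The target ZBTB7B stood at 2.55, 5.97 and 0 TPM in the shZBTB7B libraries, against 22.3, 25.1 and 25.4 TPM in the CTRL_shZBTB7B libraries. Colon epithelial markers were 11 genes, among them EPCAM, KRT8, KRT20 and CDX2. Their sum was 41.3 to 95.8 TPM in the CM10 libraries and 54.0 to 1320 TPM in the CTRL_CM10 libraries. It was 365 to 1888 TPM in the shZBTB7B libraries and 61.5 to 2349 TPM in the CTRL_shZBTB7B libraries. In CTRL_shZBTB7B replicate 3, KRT8, KRT18 and KRT19 had 1095, 615 and 335 TPM, against 1.24 for KRT20 and 0 for CDX2. CDX2 reached at most 5.32 TPM in any library, so the sums do not show colon identity. Smooth muscle markers (6 genes) summed to 66288 TPM in CTRL_shZBTB7B replicate 2, and stomach markers (6 genes) to 55239 TPM in CTRL_CM10 replicate 3, which goes against the labelled cell line. The labels are therefore used as names of groups, and the part of these differences in the results below was not tested.

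With CM10, 47 of the 49 members passed the filter of at least 1 TPM in at least 3 of the 6 libraries. Of these, 22 fell and 1 rose. The 47 tested include PSME3IP1 and leave out PSMA8 and PSMC3IP. They are thus not the same 47 as the genes encoding subunits, regulators or assembly factors. The falls reached the core, the cap, the immune subunits and the chaperones, and the single rise was that of PSMG4, a chaperone of core assembly. Over all 12529 genes tested, 18.3% were called lower and 13.6% higher. The 22 falls lay between -4.97 and -2.66 on the log2 scale, with adjusted p from 0.0053 to 0.038. The median difference of the 47 members tested was -2.66, against -1.004 over all genes tested. It was -1.39 over the 5030 genes averaging 10 TPM or more, of which 23.3% were called lower and 27.7% higher. In 31 of the 47, all CM10 libraries lay below all CTRL_CM10 libraries, as they did for 28.9% of all genes tested and 33.9% of those averaging 10 TPM or more. In 1, PSMG4, they lay above, as for 18.5% of all genes tested and 32.6% of those averaging 10 TPM or more. Leaving out 1 library changed the count of falls, to 9 for CM10 replicate 2, 10 for CM10 replicate 3 and 5 for CTRL_CM10 replicate 1. The same fits called 765 of 12069, 1039 of 11864 and 510 of 11156 genes lower, against 2298 of 12529 with all libraries. Only 4 of the 22 falls, those of PSMA4, PSMB7, PSMB9 and PSMD7, were called in each of the 6 removals of 1 library. It was also 4 with a pseudocount of 0.1, where 715 genes were called lower, and 41 where TPM was rescaled without the MTRNR2L genes, a scaling under which 5550 genes were called lower and 1632 higher in place of 2298 and 1705.

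The summed level of the set differed among the CM10 libraries. Over the 47 genes that encode subunits, regulators or assembly factors, leaving out PSMG4, TPM came to 853, 403 and 160.1 in the CM10 libraries, against 3863, 1505 and 2062 in the CTRL_CM10 libraries. The highest CM10 sum stayed under the lowest CTRL_CM10 sum. Of these 47 genes, 1, 16 and 26 were listed at 0 in the CM10 libraries (2.13%, 34.0% and 55.3%), against 0, 1 and 1 in the CTRL_CM10 libraries. Of all 18665 genes, 30.1%, 54.5% and 49.6% were at 0 in the CM10 libraries, against 21.6%, 29.1% and 23.2% in the CTRL_CM10 libraries. Of the 25 members averaging 50 TPM or more, 0%, 28.0% and 52.0% were at 0 in the CM10 libraries. For the 1888 genes at that level the shares were 1.75%, 10.3% and 19.5%. Among the 22 genes that fell, 11 were listed at 0 in 2 CM10 libraries, 9 in 1 and 2 in none. The plot of levels by library shows the zeros in CM10 replicate 3, in which the median of the 47 genes was itself 0.

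**Figure D1:**
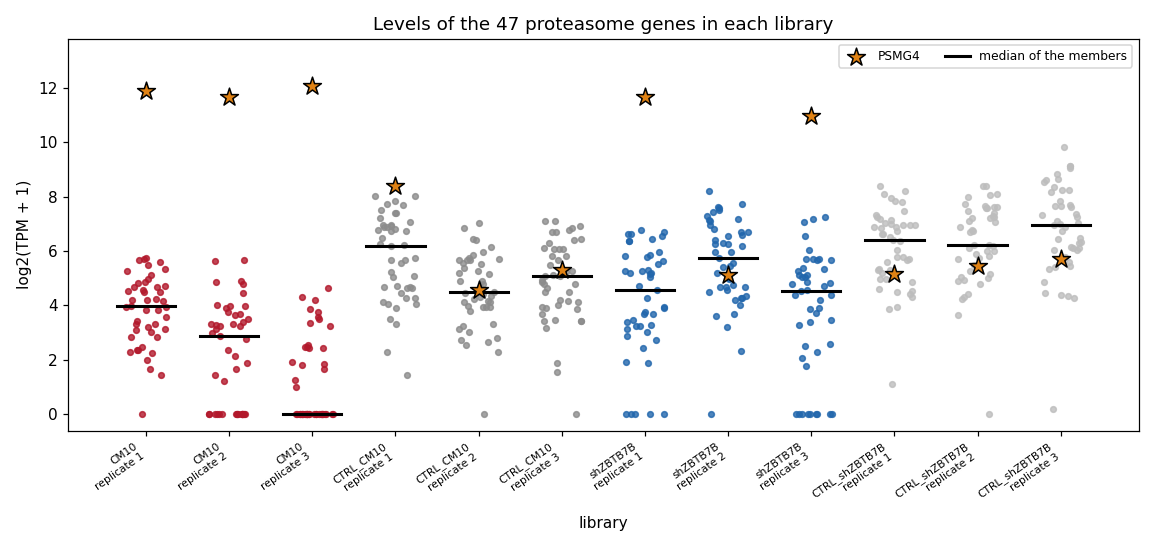
Levels of the 47 proteasome genes (subunits, regulators and assembly factors) in each of the 12 libraries, as log2(TPM + 1). Each point is a gene, the black line is the median of the genes and the star is PSMG4, which lies far above all other points in the 3 CM10 libraries and in shZBTB7B replicates 1 and 3, and just above them in CTRL_CM10 replicate 1.

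All 3 constitutive catalytic subunits fell with CM10, against 18.3% of all genes tested. PSMB5, which carries the chymotrypsin-like activity, had 13.4, 12.6 and 0 TPM in the CM10 libraries, against 119, 37.7 and 36.2 TPM in the CTRL_CM10 libraries. PSMB6, the caspase-like subunit, had 27.1, 8.51 and 0 TPM in the CM10 libraries, against 117, 46.5 and 55.4 TPM in the CTRL_CM10 libraries. PSMB7, the trypsin-like subunit, had 21.6, 0 and 0 TPM in the CM10 libraries, against 132, 49.4 and 101.7 TPM in the CTRL_CM10 libraries. For each of the 3 genes every CM10 library was under every control library. The limma differences were -3.26 (SE 1.08, adjusted p 0.031) for PSMB5, -3.40 (SE 1.12, adjusted p 0.030) for PSMB6 and -4.97 (SE 1.13, adjusted p 0.0053) for PSMB7. PSMB5 did not pass without CM10 replicate 3 (limma adjusted p 0.21) or CTRL_CM10 replicate 1 (0.11), and PSMB6 without CM10 replicate 3 (0.20), CM10 replicate 2 (0.055) or CTRL_CM10 replicate 1 (0.093).

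Of the immune catalytic subunits, PSMB9 and PSMB8 fell and PSMB10 did not pass the test. PSMB9, which takes the place of PSMB6, had 4.60, 0 and 0 TPM in the CM10 libraries, against 49.7, 17.98 and 21.4 TPM in the CTRL_CM10 libraries. PSMB8, the counterpart of PSMB5, had 6.11, 11.5 and 0 TPM in the CM10 libraries, against 75.3, 45.0 and 33.9 TPM in the CTRL_CM10 libraries. PSMB10, the counterpart of PSMB7, had 14.5, 6.83 and 4.45 TPM in the CM10 libraries, against 24.02, 34.9 and 28.2 TPM in the CTRL_CM10 libraries. The groups did not overlap for any of the 3. The limma differences were -3.97 (SE 0.95, adjusted p 0.0068) for PSMB9, -3.48 (SE 1.02, adjusted p 0.018) for PSMB8 and -1.77 (SE 0.89, adjusted p 0.12) for PSMB10. PSMB8 did not pass without CM10 replicate 3 (limma adjusted p 0.13) or CTRL_CM10 replicate 1 (0.062). The summed immune over the summed constitutive catalytic subunits gave ratios of 0.407 and 0.868 in CM10 replicates 1 and 2, against 0.405, 0.733 and 0.432 in the CTRL_CM10 libraries. The ranges of the ratio overlapped, and CM10 replicate 3 gave none because all 3 constitutive subunits were listed at 0 there.

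**Figure D2:**
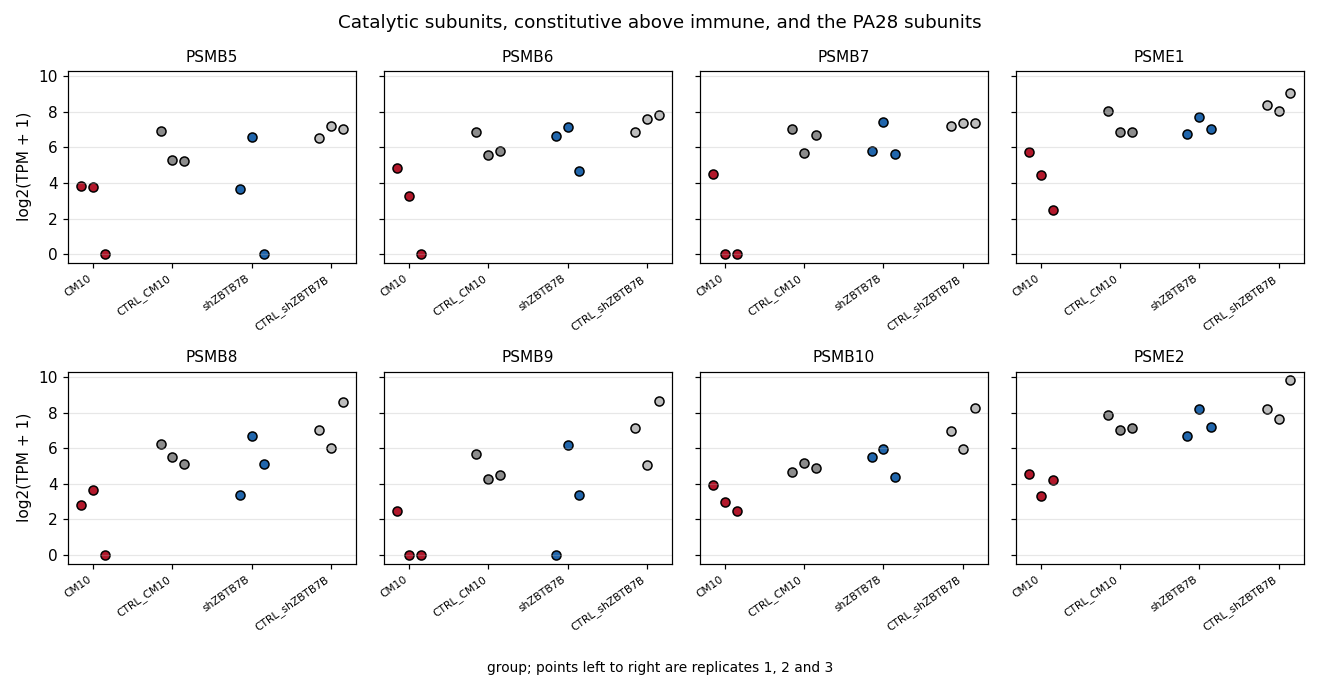
Levels of PSMB5, PSMB6 and PSMB7 (upper row), their immune counterparts PSMB8, PSMB9 and PSMB10 (lower row) and the activator subunits PSME1 and PSME2 (last column), as log2(TPM + 1), with 1 point per library and replicates 1, 2 and 3 from left to right within a group. All CM10 points lie under all CTRL_CM10 points in every panel, while shZBTB7B and CTRL_shZBTB7B points overlap except for PSMB10 and PSME1.

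Among the remaining core subunits, 2 of 7 alpha subunits tested (28.6%) and 3 of 4 other beta subunits fell. Over all genes tested 18.3% were called lower, and 23.3% of those averaging 10 TPM or more. The share of the alpha subunits was near the latter. PSMA4 had 25.4, 0 and 0 TPM in the CM10 libraries, against 166, 53.0 and 85.1 TPM in the CTRL_CM10 libraries (difference -4.95, SE 1.16, limma adjusted p 0.0060). PSMA5 had 4.16, 0 and 0.98 TPM in the CM10 libraries, against 24.3, 9.06 and 9.83 TPM in the CTRL_CM10 libraries (difference -2.69, SE 0.92, limma adjusted p 0.034). Neither gene overlapped between the groups, and the other 5 alpha subunits tested lay between -2.67 and -2.18 without passing. PSMA4 was called in every removal of 1 library, whereas PSMA5 did not pass in any removal other than that of CM10 replicate 1, with limma adjusted p between 0.051 and 0.15 in the others. PSMA8, an alpha subunit known from testis, was listed at 0 in all CM10 and all shZBTB7B libraries and reached at most 1.69 TPM in the controls, so it was removed by the filter.

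PSMB3 and PSMB1, beta subunits without a catalytic site, had the smallest p of the other beta subunits that fell. PSMB3 had 30.1, 0 and 12.4 TPM in the CM10 libraries, against 179, 84.4 and 103 TPM in the CTRL_CM10 libraries (difference -3.97, SE 1.15, limma adjusted p 0.017). PSMB1 had 43.5, 7.68 and 0 TPM in the CM10 libraries, against 209, 57.6 and 119.9 TPM in the CTRL_CM10 libraries (difference -3.97, SE 1.19, limma adjusted p 0.021). PSMB4 fell as well, by 3.98 (limma adjusted p 0.023). None of the 3 passed without CTRL_CM10 replicate 1 (limma adjusted p 0.055 to 0.074), PSMB3 did not pass without CM10 replicate 2 (0.18), and PSMB1 and PSMB4 did not without CM10 replicate 3 (0.12 and 0.16). PSMB2 went the other way without passing the test. It had 24.5, 49.5 and 23.8 TPM in the CM10 libraries, against 25.4, 7.75 and 8.0 TPM in the CTRL_CM10 libraries (difference 1.31, SE 0.92, limma adjusted p 0.26), and its groups overlapped through CTRL_CM10 replicate 1.

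In the regulatory particle, 1 of 6 ATPases (16.7%) and 5 of 11 other subunits (45.5%) fell. Over all genes tested 18.3% were called lower, and 23.3% of those averaging 10 TPM or more. The share of the ATPases was thus not above that of all genes. PSMC5, an ATPase of the base, had 28.1, 0 and 0 TPM in the CM10 libraries, against 105.7, 26.8 and 65.6 TPM in the CTRL_CM10 libraries (difference -4.24, SE 1.18, limma adjusted p 0.014). Its groups overlapped, since CM10 replicate 1 exceeded CTRL_CM10 replicate 2. The other ATPases lay between -2.38 and -0.78, and PSMC1 was the one at -0.78. PSMD7, a lid subunit that pairs with the deubiquitinase PSMD14, had 17.1, 0 and 0 TPM in the CM10 libraries, against 71.6, 29.1 and 67.8 TPM in the CTRL_CM10 libraries (difference -4.34, SE 1.09, limma adjusted p 0.0088). PSMD6, another lid subunit, had 7.06, 0 and 0 TPM in the CM10 libraries, against 45.9, 14.4 and 26.8 TPM in the CTRL_CM10 libraries (difference -3.76, SE 0.99, limma adjusted p 0.011). Neither overlapped between the groups. PSMD14, PSMD1 and PSMD3 also fell. Without CM10 replicate 2 or CTRL_CM10 replicate 1, PSMC5 (limma adjusted p 0.071 and 0.072) and PSMD6 (0.052 and 0.064) did not pass. The lid subunit PSMD12 was the only one of the 11 with a difference above 0 (0.11, SE 0.92, limma adjusted p 0.93), and the sign turned without CTRL_CM10 replicate 2 (-0.37), CM10 replicate 2 (-0.16) or CM10 replicate 3 (-0.12). PSMD11, another lid subunit, had 8.25, 5.78 and 10.3 TPM in the CM10 libraries, against 8.85, 5.61 and 14.3 TPM in the CTRL_CM10 libraries, and its difference of -0.16 (SE 0.87) was above 0 without CM10 replicate 2 (0.035) or CTRL_CM10 replicate 3 (0.14).

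All 3 subunits of the PA28 activators, rings that open the core without ATP, fell with CM10, against 18.3% of all genes tested. PSME1 had 51.6, 20.8 and 4.52 TPM in the CM10 libraries, against 261, 113.5 and 115.3 TPM in the CTRL_CM10 libraries (difference -3.04, SE 1.06, limma adjusted p 0.038). PSME2, its partner in the interferon-induced activator, had 22.2, 8.96 and 17.6 TPM in the CM10 libraries, against 231, 130.2 and 138 TPM in the CTRL_CM10 libraries (difference -3.31, SE 0.97, limma adjusted p 0.018). PSME3, the subunit of the nuclear activator, had 3.79, 0 and 0 TPM in the CM10 libraries, against 18.2, 16.5 and 13.9 TPM in the CTRL_CM10 libraries (difference -3.34, SE 0.91, limma adjusted p 0.013). None of the 3 overlapped between the groups. PSME1 did not pass without CM10 replicate 2, CM10 replicate 3, CTRL_CM10 replicate 1 or CTRL_CM10 replicate 3 (limma adjusted p 0.061 to 0.20), PSME2 without CM10 replicate 2 (0.13), and PSME3 without CM10 replicate 2 (0.056) or CTRL_CM10 replicate 1 (0.054). PSMF1, which binds the core as an inhibitor in vitro, had 2.13, 1.32 and 2.15 TPM in the CM10 libraries, against 18.1, 7.07 and 9.95 TPM in the CTRL_CM10 libraries. It did not overlap either, but did not pass the test (difference -2.07, SE 0.86, limma adjusted p 0.069). PSME4, the nuclear activator PA200, had a difference of -1.06 with overlapping groups.

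The assembly chaperones held both directions. PSMG2, which works on the alpha ring as a partner of PSMG1, had 21.6, 0 and 0 TPM in the CM10 libraries, against 124, 28.7 and 50.1 TPM in the CTRL_CM10 libraries (difference -4.35, SE 1.14, limma adjusted p 0.011). PSMD9, a chaperone of the ATPase ring, had 2.98, 0 and 0 TPM in the CM10 libraries, against 14.1, 5.92 and 9.76 TPM in the CTRL_CM10 libraries (difference -2.71, SE 0.87, limma adjusted p 0.027). PSMG2 did not pass without CM10 replicate 2 (limma adjusted p 0.056) or CTRL_CM10 replicate 1 (0.065), and PSMD9 without CM10 replicate 2, CM10 replicate 3, CTRL_CM10 replicate 1 or CTRL_CM10 replicate 3 (0.070 to 0.099). PSMG1 fell too, and PSMD5, PSMD10 and PSMG3 did not pass. PSMG3 had 13.1, 8.61 and 8.41 TPM in the CM10 libraries, against 24.1, 20.7 and 26.4 TPM in the CTRL_CM10 libraries (difference -1.18, SE 0.87, limma adjusted p 0.28).

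PSMG4, which with PSMG3 guides early assembly of the alpha ring, had 3811, 3236 and 4252 TPM in the CM10 libraries, against 331, 22.8 and 38.6 TPM in the CTRL_CM10 libraries. The means were 3766 ± 509 TPM with CM10 and 131 ± 174 TPM in CTRL_CM10 (SD, n = 3 each), and the difference was 5.78 (SE 1.40, limma adjusted p 0.0072). Every CM10 library exceeded every control library, and CTRL_CM10 replicate 1 stood well above the other controls. Without CTRL_CM10 replicate 3 the adjusted p was 0.075, and without the filter on low values it was 0.062. The one gene made up 81.7%, 88.9% and 96.4% of the TPM summed over the 47 proteasome genes in the CM10 libraries, against 7.90%, 1.49% and 1.84% in the CTRL_CM10 libraries.

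PSMG4 lies on chromosome 6 (chr6:3231637-3303607, plus strand, GRCh37, the same assembly as the hg19 build used by the authors). Its gene model overlaps TUBB2B and SLC22A23 on the opposite strand, and counting by strand is not stated. These neighbours were listed at most at 3.13 TPM in any CM10 library. A protein-coding PSMG4 transcript, 1 of 7 annotated, carries in its 3′ UTR a 24-base stretch that recurs in transcripts of 1230 protein-coding genes. Such widely shared stretches, held by at least 200 protein-coding genes on either strand, were found in 14 of the 49 members (28.6%) and in 29.5% of the 17951 genes searched. The search was made after the member values had been seen. An earlier form of it, an 18-base match to the first 120 bases of the Alu-derived RNA BCYRN1, had found 6 members and not PSMG4. Among carriers, PSMG4 and PSMB2 had the highest and PSMA4 the lowest CM10 difference. The deposited levels do not show which part of a transcript the reads came from.

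Genes with such a stretch took a very different share of the libraries. Leaving the proteasome genes out, they held 75.6%, 76.6% and 81.2% of the TPM in the CM10 libraries, against 26.4%, 5.79% and 13.4% in the CTRL_CM10 libraries. In the hairpin experiment they held 69.3%, 15.4% and 63.7% in the shZBTB7B libraries, against 20.0%, 22.3% and 21.1% in the CTRL_shZBTB7B libraries. PSMG4 lay between 2015 and 4252 TPM in the 5 libraries with a share of 63.7% or more, and between 22.8 and 331 TPM in the other 7, whose share was 26.4% or less. Members with a stretch lay on both sides. Of the 14 carriers, 5 fell with CM10, 1 rose and 8 were not called, with a median difference of -2.32. Of the 33 tested members without a stretch, 17 fell and all 33 differences were under 0, with a median of -2.67. Over all genes tested 18.3% were called lower and 13.6% higher, and 66.2% of the differences were under 0. These shares were not split by stretch, so the counts do not set carriers apart from other members. Where TPM was rescaled over the genes without a stretch, an alternative added after seeing the data, 0 of these 33 members were called by limma, in a fit that called 44 lower and 122 higher of 8569 genes, and their median was -2.38, against -1.26 over all genes. Whether the shared stretches bear on the level of PSMG4 was not tested.

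**Figure D3:**
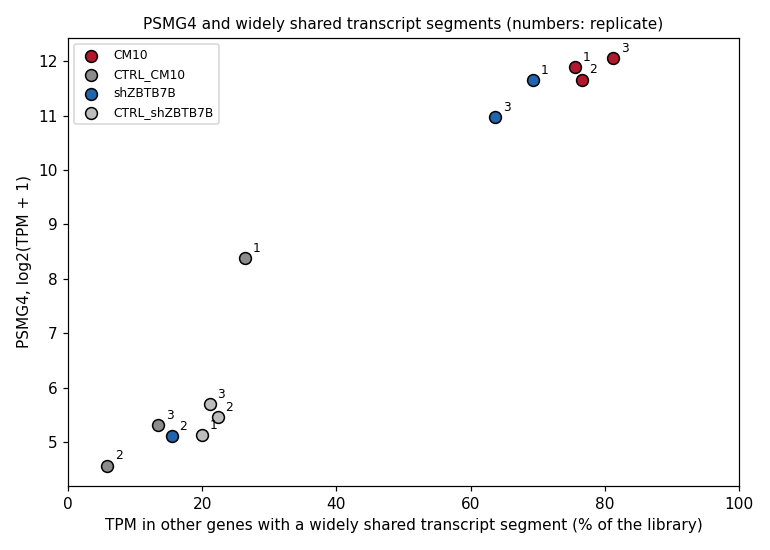
PSMG4 as log2(TPM + 1) against the percentage of each library's TPM held by other genes with a widely shared transcript stretch, 1 point per library with its replicate number. The 3 CM10 libraries and shZBTB7B replicates 1 and 3 lie at the upper right, and shZBTB7B replicate 2 lies among the controls.

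With the hairpin, no proteasome gene passed the test. Of the 48 members tested, limma called 0 lower and 0 higher, while 20 had an unadjusted p under 0.05 (41.7%, against 38.9% of the 13665 genes tested). Over all genes, 11.0% were called lower and 0.717% higher, and over the 8479 genes averaging 10 TPM or more, 8.73% and 0.826%. The median difference of the members was -1.70, against -1.45 over all genes tested, and 46 of the 48 were under 0. In 32 of the 48 all shZBTB7B libraries lay under all CTRL_shZBTB7B libraries, as for 42.4% of all genes tested and 42.7% of those averaging 10 TPM or more. In 0 they lay above, as for 3.02% and 3.47%. The lowest adjusted p was that of the alpha subunit PSMA7, which had 34.3, 122 and 50.8 TPM in the shZBTB7B libraries, against 224, 271 and 556 TPM in the CTRL_shZBTB7B libraries (difference -2.41, SE 0.74, limma adjusted p 0.060).

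shZBTB7B replicate 2 stood apart from the other shZBTB7B libraries in the summed level of its proteasome genes and in their closeness in rank to the controls. Across the 47 genes the levels of replicate 2 ranked with those of the 6 controls of both experiments at Spearman coefficients of 0.89 to 0.95. Those of replicate 1 did so at 0.60 to 0.78 and those of replicate 3 at 0.39 to 0.57. Replicate 2 ranked with replicates 1 and 3 at 0.70 and 0.45. Replicates 1 and 3 ranked with each other at 0.62, so by rank they did not form a pair apart from replicate 2. These are descriptions over genes that share a library, not independent points. Members listed at 0 numbered 5, 1 and 9 in the shZBTB7B libraries, against 0, 1 and 0 in the CTRL_shZBTB7B libraries. Summed TPM without PSMG4 was 1530, 3508 and 1383 in the shZBTB7B libraries, against 4613, 5249 and 8624 in the CTRL_shZBTB7B libraries.

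Without shZBTB7B replicate 2, 29 of the 48 members were lower and 1, PSMG4, was higher by limma. Over all 13247 genes tested in that fit 40.0% were called lower and 11.4% higher, and the median difference was -2.03 for the members against -1.70 for all genes. All 6 ATPases and 8 of 11 other subunits of the regulatory particle were among the 29, with 3 of 7 alpha subunits and 2 of 3 immune subunits. This fit was 1 of the removals of each library in turn, and shZBTB7B replicates 1 and 3 alone stand for shZBTB7B in it.

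Among the core genes, the catalytic subunits overlapped between the hairpin groups with the exception of PSMB10. PSMB5 had 11.8, 95.3 and 0 TPM in the shZBTB7B libraries, against 90.8, 149 and 128 TPM in the CTRL_shZBTB7B libraries (difference -3.50, SE 1.46, limma adjusted p 0.12). PSMB6 had 97.9, 142 and 24.9 TPM in the shZBTB7B libraries, against 116, 196 and 226 TPM in the CTRL_shZBTB7B libraries (difference -1.28, SE 0.80, limma adjusted p 0.25). PSMB7 had 55.5, 173 and 49.4 TPM in the shZBTB7B libraries, against 145, 167 and 165 TPM in the CTRL_shZBTB7B libraries (difference -1.01, SE 0.70, limma adjusted p 0.29). For each of them shZBTB7B replicate 2 lay above the lowest control. PSMB4 had the smallest p among the other beta subunits, with 84.9, 193 and 32.4 TPM in the shZBTB7B libraries, against 273, 337 and 455 TPM in the CTRL_shZBTB7B libraries and no overlap (difference -2.08, SE 0.77, limma adjusted p 0.090).

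The immune subunits differed widely among the controls of the hairpin. PSMB9 had 0, 72.2 and 9.46 TPM in the shZBTB7B libraries, against 141, 31.8 and 402 TPM in the CTRL_shZBTB7B libraries (difference -3.75, SE 1.56, limma adjusted p 0.12). PSMB8 had 9.40, 101.7 and 33.4 TPM in the shZBTB7B libraries, against 128, 63.0 and 392 TPM in the CTRL_shZBTB7B libraries (difference -2.16, SE 1.03, limma adjusted p 0.15). PSMB10 had 44.8, 60.9 and 19.9 TPM in the shZBTB7B libraries, against 122.6, 62.3 and 302 TPM in the CTRL_shZBTB7B libraries (difference -1.77, SE 0.82, limma adjusted p 0.14). In all 3 genes CTRL_shZBTB7B replicate 3 was highest and replicate 2 lowest of the controls. The ratio of summed immune to constitutive catalytic subunits was 0.328, 0.572 and 0.845 in the shZBTB7B libraries, against 1.11, 0.307 and 2.11 in the CTRL_shZBTB7B libraries. Its range among the shZBTB7B libraries lay inside that of the controls.

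The leukocyte markers had the order of the immune subunits in these controls. The 11 markers summed to 2674, 987 and 4100 TPM in the shZBTB7B libraries, against 8515, 966 and 18397 TPM in the CTRL_shZBTB7B libraries, and their medians were 0, 18.5 and 0 TPM in the shZBTB7B libraries, against 172, 4.76 and 259 TPM in the CTRL_shZBTB7B libraries. The T cell marker CD3E stood at 387, 6.80 and 409 TPM in the CTRL_shZBTB7B libraries, the same order of replicates 1, 2 and 3 as that of the immune subunits. The markers above 0 numbered 5, 11 and 4 in the shZBTB7B libraries, where CD3D was at 0 in replicates 1 and 3, against 11, 10 and 11 in the CTRL_shZBTB7B libraries. In the CM10 experiment the marker sums were 3044, 3398 and 3430 TPM with CM10, most of it LYZ, with CD3D at 0 in all 3, against 1616, 5122 and 1259 TPM in the CTRL_CM10 libraries. Of the 9 markers tested, 5 fell with CM10 (CD68, CD14, CD74, CD3D and CD3E), against 18.3% of all genes tested. The median of the 9 was -2.998. PSMB8 and PSMB9 fell with CM10, but so did the constitutive PSMB5, PSMB6 and PSMB7. Of 9 colon epithelial markers tested, 3 fell with CM10 (KRT19, KRT18 and EPCAM), against the same 18.3%. The leukocyte markers above 0 numbered 7, 4 and 3 in the CM10 libraries, against 10, 11 and 11 in the CTRL_CM10 libraries. The part of the leukocyte markers in the levels of PSMB8, PSMB9 and PSMB10 was not tested. A change of cell types cannot be told apart from a change per cell in such libraries.

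The other regulators and the chaperones also stayed short of the threshold with the hairpin. PSME1 had 108, 211 and 132 TPM in the shZBTB7B libraries, against 338, 267 and 529 TPM in the CTRL_shZBTB7B libraries (difference -1.33, SE 0.63, limma adjusted p 0.15). PSME2 had 103, 297 and 145 TPM in the shZBTB7B libraries, against 298, 201 and 899 TPM in the CTRL_shZBTB7B libraries (difference -1.20, SE 0.78, limma adjusted p 0.26). The groups did not overlap for PSME1 and overlapped for PSME2. PSME3 had 8.69, 18.6 and 28.1 TPM in the shZBTB7B libraries, against 47.9, 43.9 and 68.0 TPM in the CTRL_shZBTB7B libraries (difference -1.59, SE 0.73, limma adjusted p 0.14). PSMF1 had 6.38, 19.5 and 10.1 TPM in the shZBTB7B libraries, against 21.3, 29.6 and 39.5 TPM in the CTRL_shZBTB7B libraries (difference -1.35, SE 0.76, limma adjusted p 0.21). Neither overlapped between the groups. PSME4 had the smallest p of the regulators, with 2.66, 4.04 and 4.68 TPM in the shZBTB7B libraries, against 13.6, 11.5 and 19.9 TPM in the CTRL_shZBTB7B libraries and no overlap (difference -1.73, SE 0.77, limma adjusted p 0.13).

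In the regulatory particle the smallest p-values were those of PSMD3 and PSMC5. PSMD3, a lid subunit, had 4.44, 24.4 and 0 TPM in the shZBTB7B libraries, against 54.2, 71.4 and 79.7 TPM in the CTRL_shZBTB7B libraries (difference -3.73, SE 1.15, limma adjusted p 0.062). PSMC5 had 7.67, 75.9 and 13.6 TPM in the shZBTB7B libraries, against 124, 175 and 136 TPM in the CTRL_shZBTB7B libraries (difference -2.76, SE 0.90, limma adjusted p 0.068). Neither overlapped. Among the chaperones, PSMD5 had 2.83, 8.18 and 4.98 TPM in the shZBTB7B libraries, against 21.8, 26.3 and 18.4 TPM in the CTRL_shZBTB7B libraries (difference -1.95, SE 0.77, limma adjusted p 0.10).

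PSMG4 again stood apart. It had 3221, 33.7 and 2015 TPM in the shZBTB7B libraries, against 34.2, 43.1 and 51.0 TPM in the CTRL_shZBTB7B libraries (difference 3.82, SE 1.54, limma adjusted p 0.11). Replicates 1 and 3 of shZBTB7B exceeded all controls and replicate 2 lay below all of them, so the groups overlapped. Without shZBTB7B replicate 2 the difference was 5.88 (SE 0.41, limma adjusted p 0.0023). Its share of the summed TPM of the 47 genes was 67.8%, 0.952% and 59.3% in the shZBTB7B libraries, against 0.736%, 0.815% and 0.588% in the CTRL_shZBTB7B libraries. PSMD12 was the only other member above 0 with the hairpin (difference 0.15, SE 0.77, limma adjusted p 0.89).

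**Figure D4:**
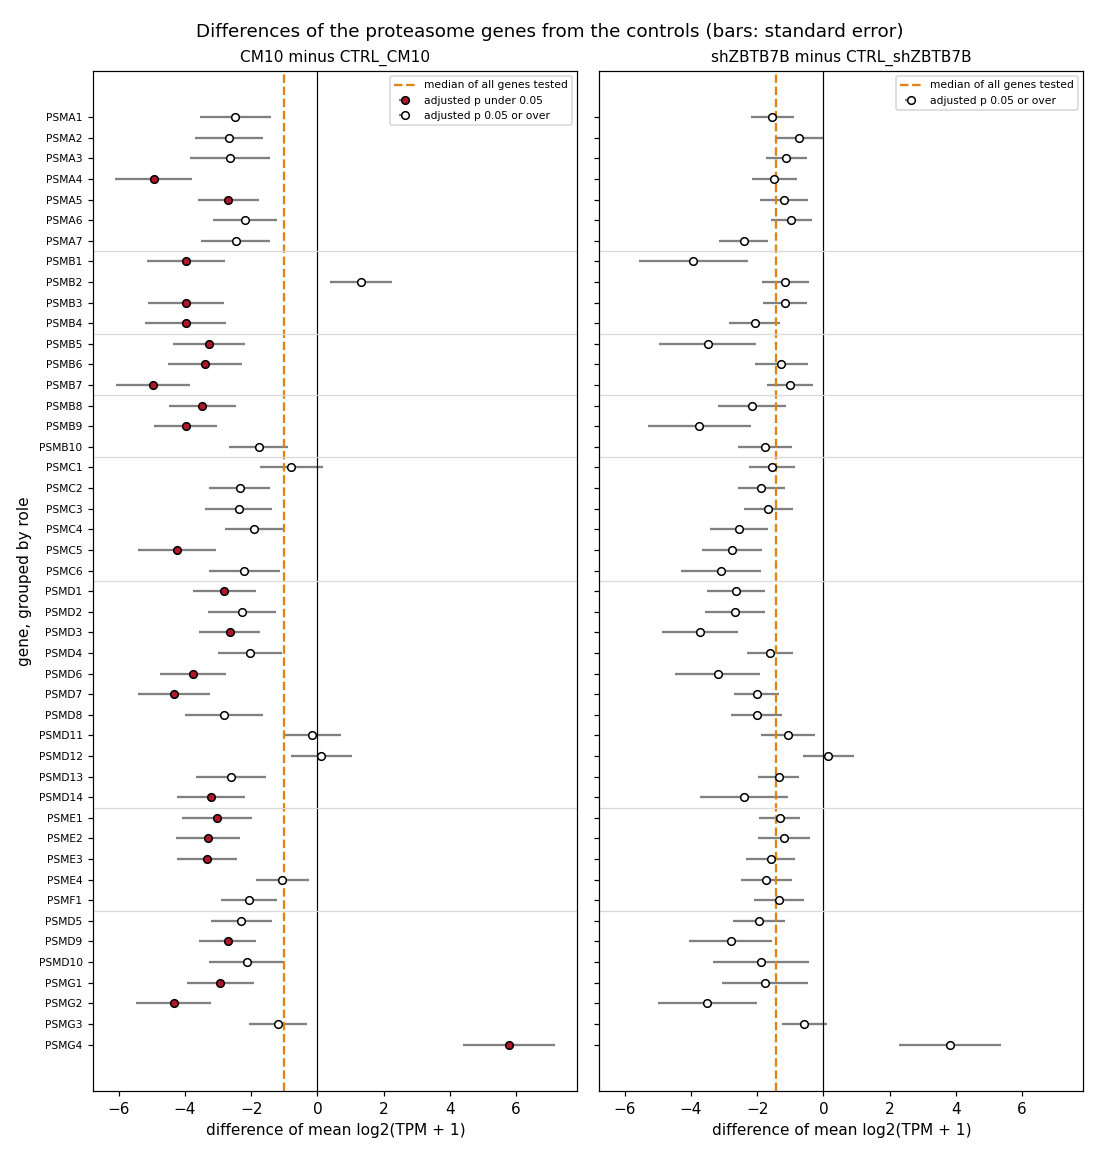
Difference of mean log2(TPM + 1), CM10 minus CTRL_CM10 on the left and shZBTB7B minus CTRL_shZBTB7B on the right, for the 46 proteasome genes tested in both, with bars of 1 SE and lines between role groups. Filled points are called by limma, and the dashed line is the median of all genes tested, -1.004 on the left and -1.45 on the right.

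The CM10 and hairpin effects could not be told to differ for any member. The contrast of the 2 effects over all 12 libraries called 0 of 47 members by limma, with 3 at an unadjusted p under 0.05 and a lowest adjusted p of 0.48, and 0 of 11937 genes (0.0%), with 1133 at an unadjusted p under 0.05. PSMB7 had the lowest p, with a difference of effects of -3.95 (SE 1.57). That PSMB7 fell with CM10 and was not called with the hairpin is therefore not shown to be a difference between the experiments.

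PSMC3IP and PSME3IP1, the 2 genes that are not subunits, were not called in either experiment. PSMC3IP was listed at 0 in each CM10 library, against 2.96, 0.94 and 0 TPM in the CTRL_CM10 libraries, and was removed by the filter there. With the hairpin its difference was -0.99 (SE 0.87, limma adjusted p 0.39). PSME3IP1 had 15.8, 20.6 and 28.3 TPM in the CM10 libraries, against 37.9, 7.01 and 21.0 TPM in the CTRL_CM10 libraries (difference 0.21, SE 0.94, limma adjusted p 0.87), and a difference of -0.72 with the hairpin.

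Partners of the proteasome outside the symbol rule were called in both directions with CM10. Of 32 ubiquitin, shuttle, assembly and regulatory genes tested, 6 fell and 2 rose with CM10, against 18.3% and 13.6% of all genes tested. With the hairpin 1 fell, against 11.0%. The falls with CM10 were near the share over all genes, and the rises and the hairpin fall were below it. FBXO7, which binds PSMF1, had 15.4, 0 and 4.41 TPM in the CM10 libraries, against 58.3, 32.9 and 38.2 TPM in the CTRL_CM10 libraries (difference -3.27, SE 1.03, limma adjusted p 0.025). AKIRIN2, which brings proteasomes into the nucleus, fell by 2.98 (SE 0.97, limma adjusted p 0.030). DDI2, the protease that activates NFE2L1, had 21.8, 24.5 and 24.02 TPM in the CM10 libraries, against 2.82, 0.80 and 1.5 TPM in the CTRL_CM10 libraries (difference 3.24, SE 0.86, limma adjusted p 0.012). PAAF1, which binds the ATPases, rose by 2.86 (SE 0.96, limma adjusted p 0.033), and both DDI2 and PAAF1 carry a widely shared stretch. NFE2L1, the transcription factor that raises proteasome genes when the proteasome is inhibited, was the one called with the hairpin. It had 2.79, 11.8 and 2.46 TPM in the shZBTB7B libraries, against 60.6, 111.0 and 84.6 TPM in the CTRL_shZBTB7B libraries, without overlap (difference -3.93, SE 0.81, limma adjusted p 0.038).

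Of 12 genes that act beside the immune subunits in class I presentation, 3 fell and 2 rose with CM10, against 18.3% and 13.6% of all genes tested, and 8 fell with the hairpin, against 11.0%. With the hairpin 7 of 8 fibroblast and endothelial markers also fell (median -5.10), and the 11 leukocyte markers had a median of -3.71 with 0 called by limma. The part of these markers in the class I values was not tested. HLA-B fell by 3.58 with CM10 (SE 1.07, limma adjusted p 0.021), and TAP1, the peptide transporter gene that overlaps PSMB9 on the opposite strand, fell by 2.60 (SE 0.86, limma adjusted p 0.031). TAPBP, which loads peptides, had 946, 929.7 and 992 TPM in the CM10 libraries, against 119, 7.69 and 38.9 TPM in the CTRL_CM10 libraries (difference 4.79, SE 1.21, limma adjusted p 0.0091). IRF1, an activator of the immune subunits, rose by 4.34 (SE 1.15, limma adjusted p 0.011), and both carry a widely shared stretch. With the hairpin, ERAP1, a peptide trimmer, fell by 3.76 (SE 0.88, limma adjusted p 0.041), and it carries a widely shared stretch as well.

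Promoters of the members were read for an element of GAAA, any 2 bases and GAAA again, a core of sites for interferon regulatory factors, searched on both strands in the 300 bases around each RefSeq gene start (250 before and 50 after, GRCh38.p14). The motif was chosen after the values were seen. It was present in 7 of 54 promoters of members (13.0%), from 7 of the 43 members with an entry, against 3.57% of 35116 promoters. The carriers were PSMB8, PSMB10, PSME1, PSME2, PSMA4, PSMB4 and PSMG4, and no match was found in the PSMB9 window. Those of 4 interferon-related members and of PSMG4 are shown because PSMG4 shares the element with them while its levels ran the other way, 5′ to 3′ on the gene's strand with the motif or its reverse complement in capitals.
PSMB8, chr6:32844034-32844059, minus strand: tctgtggcTTTCGCTTTCacttcctc
PSMB10, chr16:67936854-67936879, minus strand: gtaaaggcGAAAGCGAAAgcaggaag
PSME1, chr14:24136191-24136216, plus strand: cctaccgcTTTCGCTTTCccttcgcg
PSME2, chr14:24146621-24146646, minus strand: tggggagtGAAAGCGAAAgcccgggc
PSMG4, chr6:3258906-3258931, plus strand: ccggggccGAAAGCGAAAgcgcgctc
A second pattern, TGANNNNGC, is a loose form of antioxidant elements, at which NFE2L1 and related factors act. It leaves every base between TGA and GC open, so a match need not be such an element. The pattern was in 33 of the 54 promoters (61.1%), from 28 members, against 41.8% of all promoters. Matches of letters are descriptions, and binding was not measured.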

How the data were processed

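The authors sequenced probe-captured libraries and, per the methods of the study, aligned reads to hg19 with HISAT and calculated levels with RSEM; their versions were not given in the sources used here. The deposited values were taken as TPM because all columns sum to the same total, that of TPM, although the headers name no unit; 18665 genes stand in each of 2 tables. Depth is unknown.

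Levels were analysed as log2(TPM + 1), which understates changes of low genes, for genes with TPM of at least 1 in at least 3 of 6 libraries. limma 3.58.1 in R 4.3.3 compared each perturbation with its own controls (empirical Bayes with a variance trend, two-sided, Benjamini-Hochberg over all genes tested, called under 0.05). The difference of effects was fitted over 12 libraries. The fits were run on simulated data, independent normal values around each gene's mean with planted differences. These held no excess of zeros and no shifts of whole libraries, so behaviour under such features was not tested. Other steps used Python 3.11.15. Values in every library are given for the catalytic and regulator subunits and PSMF1, for the called members with the smallest p of each role group, or its member with the smallest p where none was called, and for members at 0 in a whole group. Of other lists, up to 2 called genes per direction are named. PSMB2, PSMC1, PSMD11, PSMD12, PSMG3, PSME4 and PSME3IP1 were added after their values were seen. Members and lists were chosen with earlier results of these data known.

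Shared stretches were searched in GENCODE transcripts (GRCh37), leaving out stretches with any base fewer than 3 times. Counting by strand is not stated, and 26 members overlap a gene on the opposite strand, so their reads cannot be told apart. GRCh38 names list 44 pseudogenes of 17 members, whose reads may be split. As the TPM scale is relative, alternatives were quantile normalization, rescaling, a pseudocount of 0.1, no filter, a replicate block and removal of each library. Some genes and sequences that these rules would name are not reported here.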

Additional observations from a re-analysis of the deposited data

How the results depend on the processing

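Depth is unknown, and with 3 libraries a group a missed threshold shows no absence of change. The 22 falls with CM10 became 41 on rescaling without MTRNR2L genes, 4 with a pseudocount of 0.1 (715 of 12529 genes lower), 1 without the filter on low values (284 of 18665), and 0 on rescaling over genes without a shared stretch (33 members tested; 44 of 8569 genes), and ranged from 5 to 31 without single libraries; the 1 rise became 0 without the filter, over genes without a shared stretch (which leaves PSMG4 out) and without CTRL_CM10 replicate 3 (range 0 to 1). With the hairpin the counts of 0 became 29 lower and 1 higher without shZBTB7B replicate 2 and stayed 0 in the other removals (ranges 0 to 29 and 0 to 1). The hairpin median of -1.70 became -1.10 with quantile normalization, -0.87 over genes without a shared stretch and -0.60 with a common median; the cause was not tested. These last 2 alternatives were chosen after seeing the data. No member was called for the difference of effects under any alternative run.

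Sign changes were seen for members near 0. With CM10, rescaling without MTRNR2L genes gave PSMD12 -0.74 and PSME3IP1 -0.68, and PSMD11 was 0.27 with quantile normalization, 0.98 over genes without a shared stretch and 0.11 with a common median. Without single libraries, CM10 values ranged from -0.37 to 0.62 for PSMD12, from -0.41 to 0.73 for PSME3IP1 and from -0.46 to 0.14 for PSMD11, and the hairpin value of PSMD12 from -0.35 to 0.46. With the hairpin, quantile normalization gave PSMC3IP 0.18, PSME3IP1 0.10 and PSMG3 0.18, and the common median gave PSMB7 0.085, PSMC3IP 0.11, PSMD11 0.018, PSME3IP1 0.38 and PSMG3 0.52. Of the other alternative values of single named members, 279 with CM10 and 376 with the hairpin kept direction and side of the threshold, 91 with CM10 no longer passed, and 11 with CM10 and 20 with the hairpin newly passed.

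The labels do not say whether replicate numbers pair the samples. Deviations of same-numbered libraries correlated at -0.08 to 0.03, and those of different-numbered libraries at -0.11 to 0.15. With 3 libraries a group these values cannot decide whether samples were paired. With the replicate number as a block, 25 members fell and 1 rose with CM10, and 0 were called with the hairpin (median -1.70) or for the difference.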
